A study of Mus musculus with 7 samples.

Results

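Very broad accessible regions of mouse liver were described here, taken as the regions of the ATAC-seq count table that spanned 2500 bp or more. They numbered 1744 of 55680 regions, or 3.13%, and covered 5531 kb, which was 9.84% of the bases in regions. Of the 1744, 1053 overlapped a promoter, taken as 200 bp on either side of an annotated transcription start site (TSS), and 691 did not. Length alone chose the members. It comes from peaks called on these same young and aged libraries, so the members are not independent of measured accessibility, although no difference between the ages entered the choice. The samples were liver of male C57BL/6N mice, with 3 young samples (3 months) and 4 aged samples (18 months), all untreated and of the same strain. By the series' design text the 4 aged samples came from 3 animals, since different lobules of 1 aged liver gave a pair of them, whereas the methods count each sample as a biological replicate. Which samples form the pair is not stated in the sources used here. The tests treat the 4 as independent, so their p-values may be too small. Nuclei were isolated from whole tissue and tagmented by the Omni-ATAC protocol, in which Tn5 transposase inserts adapters into DNA that is free of nucleosomes.

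The libraries held between 4474652 and 25461110 counts in regions. The broad regions had a median of 318 to 1630 counts per library, and the least covered had 4 counts in 1 library, so every member was kept and tested. Over the broad regions the Spearman correlation of log2 CPM (counts per 1000000 counts in regions, with trimmed mean scaling) was 0.901 to 0.959 within an age and 0.891 to 0.929 between ages. Hepatocyte markers fitted the tissue label. All 10 of them had an accessible promoter region, with a summed CPM of 802 to 889 in young and 970 to 1109 in aged samples, and at 7 of the 10 that region was broad. Of the other cell types, 6 of 8 endothelial markers (summed CPM 79.1 to 91.1 in young and 63.2 to 107 in aged), 4 of 8 stellate cell markers (27.8 to 30.9 and 17.1 to 25.04), 2 of 8 Kupffer cell markers (7.29 to 9.16 and 3.33 to 6.87), 4 of 7 cholangiocyte markers (101 to 125 and 97.7 to 113) and 1 of 8 lymphocyte markers (10.6 to 12.8 and 10.7 to 13.6) had one. The Kupffer cell markers Adgre1, Csf1r, Cd68, Marco, Vsig4 and Timd4 and the endothelial markers Pecam1 and Lyve1 had no promoter region in the table. The hepatocyte sum was higher and the Kupffer and stellate cell sums were lower in every aged sample than in every young one, and their part in the results below was not tested. The median CPM of the marker regions was 81.3 for hepatocytes, 3.16 for Kupffer cells and 3.89 for stellate cells. Among promoter regions under 2500 bp the median log2 fold change (aged over young) was -0.53 in the lowest decile of mean log2 CPM. In the highest decile it was 0.29. In whole tissue, a change in the share of a cell type and a change within its cells cannot be told apart.

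Accessible chromatin is where transcription factors and the transcription machinery reach DNA. At most promoters and enhancers the opening is narrow, a nucleosome-depleted stretch flanked by positioned nucleosomes. Wide openings are known from genes that a tissue transcribes very strongly and from the clustered enhancers around genes that define a cell type. In hepatocytes these include the genes of secreted plasma proteins and of the transcription factors that maintain the cell. Vertebrate promoters also differ in sequence, some lying in CpG islands and others, often those of tissue-specific genes, being poor in CpG.

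Both kinds of promoter were found among the broad regions, and these sequences show them, with every CpG in capitals. The first 6 are the 250 bases upstream of a RefSeq start (GRCm38.p6), written along the gene's strand, at 3 CpG-rich and 3 CpG-poor promoters inside a broad region. The last 3 are the 250 bases at the centre of a region, read from the plus strand of GRCm38, at 1 region that became more accessible with age and 2 that became less accessible.
Cebpa, chr7:35119043-35119292, plus strand, 22 CpG: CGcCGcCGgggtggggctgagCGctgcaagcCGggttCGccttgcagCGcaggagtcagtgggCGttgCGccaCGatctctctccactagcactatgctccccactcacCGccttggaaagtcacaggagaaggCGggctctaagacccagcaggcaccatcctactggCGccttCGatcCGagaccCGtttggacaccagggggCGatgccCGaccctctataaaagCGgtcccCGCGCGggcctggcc
Irs2, chr8:11008930-11009179, minus strand, 34 CpG: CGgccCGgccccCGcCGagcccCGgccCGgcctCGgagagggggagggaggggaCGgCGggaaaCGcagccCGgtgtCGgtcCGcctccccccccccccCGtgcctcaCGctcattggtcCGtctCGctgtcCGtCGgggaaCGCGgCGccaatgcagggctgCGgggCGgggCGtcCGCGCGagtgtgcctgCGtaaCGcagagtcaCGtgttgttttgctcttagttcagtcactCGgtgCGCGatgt
Onecut1, chr9:74861671-74861920, plus strand, 31 CpG: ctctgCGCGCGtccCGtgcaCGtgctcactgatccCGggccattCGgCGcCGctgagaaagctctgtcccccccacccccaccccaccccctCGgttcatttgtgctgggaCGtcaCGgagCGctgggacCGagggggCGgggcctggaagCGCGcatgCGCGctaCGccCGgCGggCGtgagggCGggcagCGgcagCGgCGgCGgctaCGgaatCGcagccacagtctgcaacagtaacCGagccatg
Nr5a2, chr1:136960449-136960698, minus strand, 2 CpG: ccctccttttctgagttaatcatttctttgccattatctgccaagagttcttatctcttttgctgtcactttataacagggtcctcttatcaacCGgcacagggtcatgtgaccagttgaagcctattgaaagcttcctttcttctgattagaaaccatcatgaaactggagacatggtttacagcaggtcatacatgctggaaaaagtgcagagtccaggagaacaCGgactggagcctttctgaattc
Ugt1a1, chr1:88211709-88211958, plus strand, 2 CpG: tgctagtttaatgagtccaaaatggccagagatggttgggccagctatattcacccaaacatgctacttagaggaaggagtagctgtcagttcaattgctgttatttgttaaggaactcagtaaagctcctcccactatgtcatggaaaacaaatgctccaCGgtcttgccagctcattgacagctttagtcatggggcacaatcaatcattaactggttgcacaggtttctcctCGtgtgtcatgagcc
Serpina1a, chr12:103863620-103863869, minus strand, 4 CpG: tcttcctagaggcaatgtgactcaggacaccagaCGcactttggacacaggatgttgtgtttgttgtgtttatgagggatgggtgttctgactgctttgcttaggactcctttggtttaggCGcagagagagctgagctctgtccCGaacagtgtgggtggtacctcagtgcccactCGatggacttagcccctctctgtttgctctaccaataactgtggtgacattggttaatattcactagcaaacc
Ces3b body, chr8:105090995-105091244, plus strand, 2 CpG: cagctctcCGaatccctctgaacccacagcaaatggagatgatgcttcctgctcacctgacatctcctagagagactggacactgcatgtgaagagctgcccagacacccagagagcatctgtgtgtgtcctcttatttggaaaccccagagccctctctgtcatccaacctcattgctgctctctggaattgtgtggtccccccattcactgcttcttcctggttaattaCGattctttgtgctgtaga
Nearest TSS Gm27878, chr4:3068363-3068612, plus strand, 3 CpG: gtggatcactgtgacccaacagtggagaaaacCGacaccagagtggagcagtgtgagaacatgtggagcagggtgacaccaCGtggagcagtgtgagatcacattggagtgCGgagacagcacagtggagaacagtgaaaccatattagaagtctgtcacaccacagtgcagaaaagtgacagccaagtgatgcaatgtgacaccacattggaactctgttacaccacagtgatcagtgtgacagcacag
Nearest TSS Gm21182, chr8:20513398-20513647, plus strand, 0 CpG: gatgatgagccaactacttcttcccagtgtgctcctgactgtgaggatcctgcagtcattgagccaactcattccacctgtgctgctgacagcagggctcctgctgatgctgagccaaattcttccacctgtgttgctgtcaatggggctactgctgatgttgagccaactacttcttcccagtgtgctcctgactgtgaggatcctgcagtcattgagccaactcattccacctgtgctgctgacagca

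The sequences of Cebpa and Irs2 hold many CpG, though that of Cebpa has few in its middle, whereas those of Nr5a2, Ugt1a1 and Serpina1a hold a few isolated ones. None of the 9 stretches overlaps an exon annotated in GENCODE M21. Across the genome, 1030 RefSeq promoter windows (250 bases before to 50 after a start) of 842 genes lay inside a broad region. They held a median of 18 CpG, against 23 in the 10756 windows inside shorter regions and 7 in all 32817 windows. The letters TATAAA, on either strand, stood in 10.2% of the windows inside broad regions, in 6.00% of those inside shorter regions and in 13.6% of all windows. GGGCGG, the core of the GC box, stood in 54.3%, 67.02% and 35.6% of them, and CCAAT in 36.4%, 38.2% and 37.4%. GTAAACA, the forkhead motif that FOXA proteins bind, stood in 7.28% of the windows inside broad regions, 2.60% of those inside shorter regions and 3.65% of all windows. Each motif was counted on its own, overlaps between motifs included, and a match describes the letters alone.

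The longer a region was, the more often it held a promoter, and among broad promoter regions the longer ones held fewer CpG per kb. The share of regions at a promoter was 14.8% under 1000 bp, 41.5% at 1000 to 1499 bp, 57.1% at 2500 to 2999 bp, 62.1% at 3000 to 3999 bp and 70.1% at 4000 bp or more. For comparison, 27.7% of all regions lay at a promoter. Over the same classes the median CpG density of promoter regions was highest at 1000 to 1499 bp, at 58.2 per kb, and was 36.0, 28.5 and 20.1 per kb in the 3 broadest classes. Regions away from promoters kept a median of 11.4 to 11.9 CpG per kb in every class. A longer region reaches further from the start site on both sides, so a density over the whole region and the count near the start are separate measures. The plot of length classes gives both trends.

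**Figure D1:**
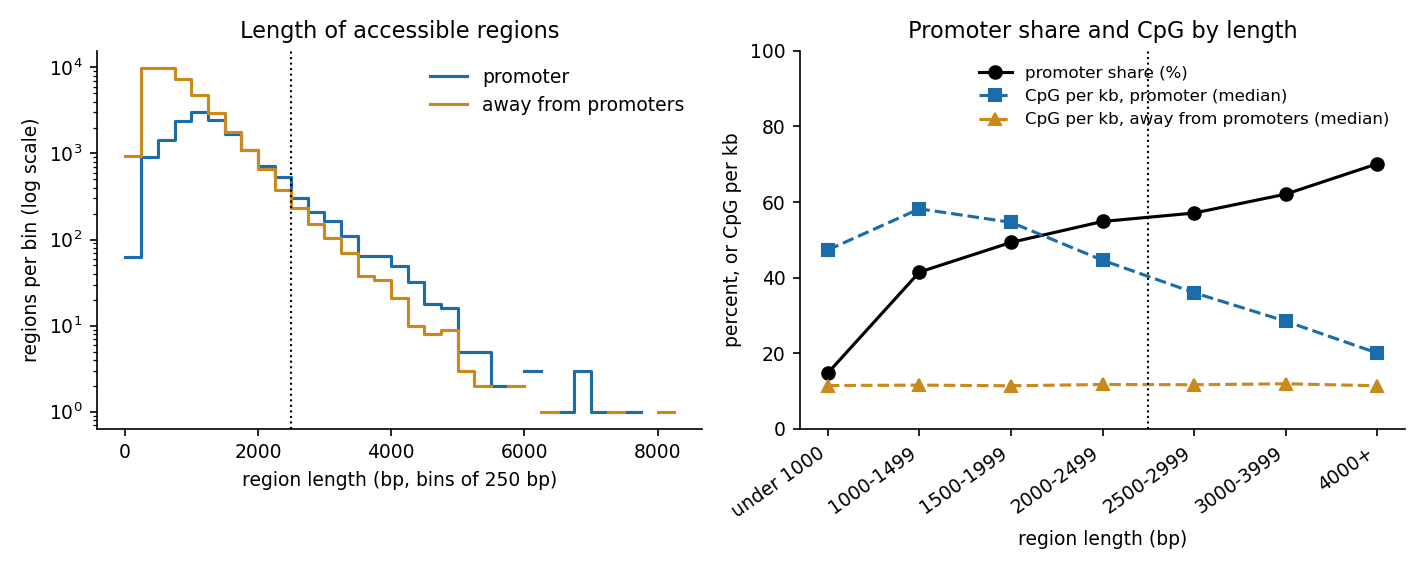
Left, number of accessible regions per 250 bp of length (log scale) at promoters (blue) and away from promoters (orange), with the 2500 bp limit dotted. Right, the percentage of regions at a promoter (black) and the median CpG per kb of regions at promoters (blue squares) and away from them (orange triangles) by length class. The promoter share reaches 70.1% and the promoter CpG density falls to 20.1 per kb at 4000 bp or more.

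The median broad region was 2969 bp long and the longest 8055 bp, against a median of 869 bp over all regions. Broad regions were also densely covered. Their median mean CPM over the 7 samples was 67.9, against 8.79 for all regions, and per kb of length it was 22.0 against 10.8. Broad promoter regions had a median of 26.1 CPM per kb and the broad regions away from promoters 16.7 CPM per kb. Of the latter, 218 overlapped an exon, 253 lay in introns and 220 were intergenic. A TSS was within 5000 bp of 243 of them, and 106 broad regions were more than 25000 bp from any TSS.

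The broad regions held the start sites of 1345 genes, 1035 of them protein-coding. Of the 1053 promoter regions, 866 held the start of 1 protein-coding gene, 91 of 2 and 7 of 3 or more. In 80 regions coding genes started on both strands, as at Dcaf6 and Mpc2 on chromosome 1 or Nek8 and Tlcd1 on chromosome 11. The other 89 promoter regions held only starts of non-coding genes or pseudogenes. Some genes lay entirely within a broad region. There were 32 such protein-coding genes in 31 regions, all of them short. Among them were Apoa1 (the main protein of high-density lipoprotein), Hamp (hepcidin, the hormone of iron balance), Cyp8b1 (the sterol 12-hydroxylase of bile acid synthesis), Mt2 (metallothionein), Gpx1 (glutathione peroxidase), the immediate early genes Ier2 and Jund, and replication-dependent histone genes such as Hist1h3a. A miRNA gene was inside 26 broad regions, among them Mir122, the most abundant miRNA of hepatocytes, Mir148a and Mir802.

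Broad regions also gathered along single genes. In all, 1386 protein-coding genes overlapped at least 1 broad region, 180 overlapped 2 or more and 27 overlapped 3 or more. Cps1, which encodes the first enzyme of the urea cycle, overlapped 5, as did Mtss1. C8a, which encodes a subunit of the terminal complement complex, overlapped 4, as did Scp2, which encodes a sterol carrier protein. Ttc39c overlapped 6. Gm20388 overlapped 8, but it is annotated across other genes, so its regions cannot be assigned to it alone.

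The longest region, of 8055 bp, lay in the body of Errfi1, which encodes a feedback inhibitor of the EGF receptor, at chr4:150865245-150873299. It measured 416, 594 and 641 CPM in the young samples and 567, 459, 758 and 618 CPM in the aged samples, so the ages overlapped. It was followed by the region at the starts of Gm27514 (7734 bp), one in the fibrinogen gene Fgb (7356 bp), the promoter of the liver transcription factor Onecut1 (7142 bp), and the regions of Mir339 (6908 bp), Fads3 (6897 bp), 1700028E10Rik (6793 bp), Serpina1a (6674 bp), E430024P14Rik (6285 bp) and Klf15 (6220 bp). Serpina1a encodes alpha-1 antitrypsin, and Klf15 a factor of fasting metabolism.

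Per kb of length, the highest accessibility was at Mir122, with a mean of 80.6 CPM per kb. This region of chromosome 18 varied widely between samples of one age, with 294, 109 and 340 CPM in young and 403, 124, 463 and 363 CPM in aged samples. The next were Zpr1, whose region also overlaps the apolipoprotein gene Apoa5 (78.3 CPM per kb), Errfi1 (71.9), Klf10, Klf13, Dcaf6 with Mpc2, 2700054A10Rik, Pck1, Nek8 with Tlcd1, and Neat1. Pck1, the gene of the key enzyme of gluconeogenesis, was just as variable, at 225, 352 and 396 CPM in young and 129, 177, 415 and 473 CPM in aged samples. The 2700054A10Rik region, of which 97.8% was repeat-masked, measured 376, 326 and 114 CPM in young and 72.9, 69.2, 65.4 and 121 CPM in aged samples. It was called less accessible (log2 fold change -1.73, SE 0.31, adjusted p = 0.0117), although young 3 lay within the range of the aged samples.

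Between the ages, 133 broad regions became more accessible and 64 less accessible at an adjusted p under 0.05. That was 7.63% and 3.67% of the broad regions, against 2.44% and 3.30% of all 55680 regions. The upward calls were small and the downward ones large, with a median log2 fold change of 0.51 among the 133 and -1.30 among the 64. Over the calls of all regions these medians were much the same, at 0.55 and -1.29. The split of the calls among broad regions depends on how the libraries are scaled and on the tool. Upward calls made up 67.5% of the calls here, 81.7% with DESeq2, which changes both scaling and test, 78.0% with limma voom, 87.3% with offsets fitted on GC content, 41.8% when libraries were scaled to total counts and 8.96% with offsets fitted on mean abundance, under which only 6 broad regions were called upward. Leaving out 1 sample also changed the calls strongly. Without young 1, 4 regions were called upward and 16 downward, without young 2 19 and 26, without aged 1 12 and 22, and without aged 3 18 and 32. Since a pair of aged samples shares a liver, each pair was also summed into 1 sample. This gave 26 to 213 upward and 38 to 75 downward calls, with fewer upward than downward calls (26 and 38) when aged 1 and 3 were summed.

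Every aged sample lay above every young sample at 486 broad regions, or 27.9%, against 10.2% of all regions. The reverse held at 78 broad regions, or 4.47%, against 11.6% of all regions. These shares, like those of the calls, were taken without matching for abundance. The median log2 fold change of the broad regions was 0.19, and 1343 of them, or 77.0%, lay above 0. The median over all regions was -0.04. Relative to it, the broad regions stood 0.23 higher with the main scaling and 0.23 higher when scaled to total counts, where the median over all regions itself moved to -0.15. With offsets fitted on mean abundance the broad regions stood 0.09 lower.

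Accessibility and length go together, so broad regions were set beside shorter ones of like abundance. Of the broad regions, 73.9% fell into the highest decile of all regions by mean log2 CPM. In that decile the median log2 fold change was 0.23 over 1289 broad regions and 0.29 over 4279 shorter ones. The order was the same at promoters, where it was 0.23 and 0.29, and away from promoters, where it was 0.23 and 0.28. In the same decile 8.999% of the broad and 12.53% of the shorter regions were called upward. At promoters these shares were 8.37% and 11.97%, and away from promoters 10.5% and 15.6%. Downward calls were 0.621% of the broad and 0.117% of the shorter regions. Every aged sample lay above every young one at 34.7% of the broad and 47.7% of the shorter regions. Among the 455 broad regions below that decile the median was -0.01. In the next decile down it was 0.06 over 177 broad regions away from promoters and 0.20 over 2150 shorter ones, and at promoters it was 0.084 over 107 and 0.15 over 3134. Away from promoters the broad regions lay further below the shorter ones at lower abundance, with -0.72 over 13 broad and -0.045 over 4542 shorter regions in decile 6. The plot against abundance shows these points below the line of the shorter regions. The 48 broad regions that were at least 50% repeat-masked had a median of 12.4 CPM and a median log2 fold change of -1.28. Of these, 44 lay away from promoters, and their part in the gap was not tested.

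**Figure D2:**
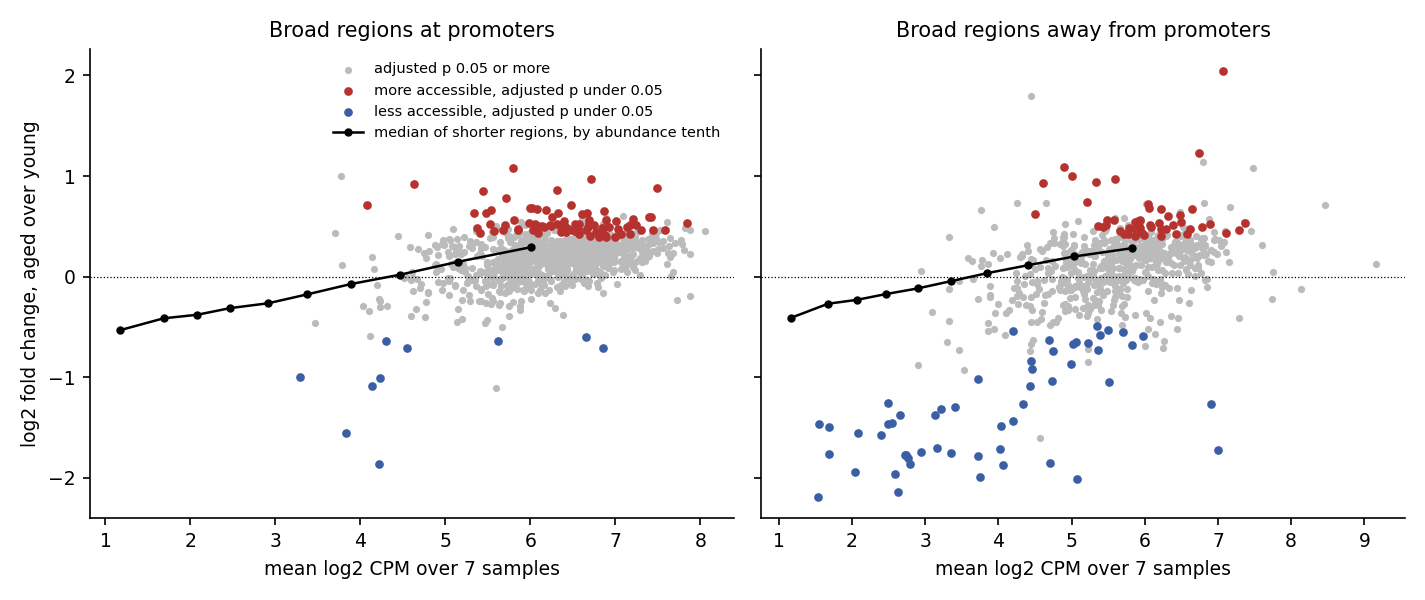
Log2 fold change (aged over young) of each broad region against its mean log2 CPM over the 7 samples, at promoters (left) and away from promoters (right). Red and blue points are regions more and less accessible at an adjusted p under 0.05, grey points the rest, and the black line joins the medians of regions under 2500 bp in each decile of abundance. Most promoter points sit above 0, and the blue points away from promoters reach -2.19.

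Of the 1053 promoter regions, 83 became more and 10 less accessible, or 7.88% and 0.950%, with a median log2 fold change of 0.21. Over all 15422 promoter regions of the table the shares were 4.48% and 2.06%. Of the 691 other regions, 50 became more and 54 less accessible, or 7.24% and 7.81%, with a median of 0.14, against 1.66% and 3.78% of all 40258 regions away from promoters. By class, the calls were 13 upward and 12 downward among regions over exons, 17 and 11 in introns, and 20 and 31 between genes. The share of each library's counts that fell in broad promoter regions was 8.70%, 8.68% and 8.92% in young and 9.17%, 9.26%, 9.74% and 9.60% in aged samples, so the ages did not overlap. The share in the other broad regions was 3.70%, 3.90% and 4.09% in young and 3.77%, 3.86%, 4.05% and 4.14% in aged samples, which overlapped throughout. All broad regions together held 12.7% ± 0.32 (SD, n = 3) of the counts in young and 13.4% ± 0.43 (SD, n = 4) in aged samples, and the highest young sample exceeded the lowest aged one.

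**Figure D3:**
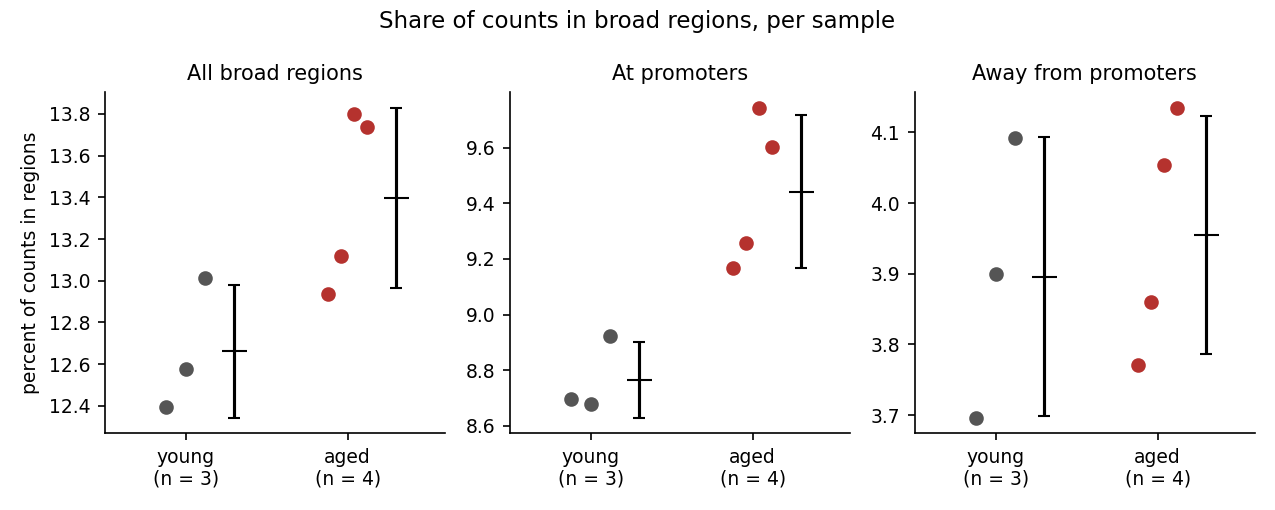
Percentage of each library's counts in regions that fell in all broad regions, in those at promoters and in those away from promoters. Points are samples, bars give the mean ± SD, and each panel has its own axis, which does not start at 0. At promoters the aged samples lie between 9.17% and 9.74%, above all 3 young samples.

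Among the called broad regions at which the ages did not overlap, the largest gain was in the body of Ces3b, a carboxylesterase gene, at chr8:105089868-105092373. It measured 25.7, 20.1 and 15.3 CPM in young and 74.0, 29.2, 42.3 and 28.0 CPM in aged samples. Its log2 fold change was 1.09 (SE 0.29, adjusted p = 0.0422). Aged 1 stood well above the other 3 aged samples here.

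Scd1 followed, the gene of the stearoyl-CoA desaturase that makes monounsaturated fatty acids, with a broad promoter region at chr19:44405399-44408761. It measured 38.0, 45.4 and 26.5 CPM in young and 72.0, 113, 62.6 and 66.9 CPM in aged samples. The log2 fold change was 1.08 (SE 0.21, adjusted p = 0.0143). The lowest aged sample was clearly above the highest young one.

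The promoter region of Igf1, which encodes the growth factor that the liver releases under growth hormone, was 6185 bp long (chr10:87857375-87863559). It measured 50.3, 64.4 and 106 CPM in young and 167, 117, 143 and 141 CPM in aged samples. The log2 fold change was 0.97 (SE 0.20, adjusted p = 0.0196). Young 3 came closest to the aged samples.

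Away from promoters, an intergenic region on chromosome 10 with Gm47571 as nearest TSS went from 17.5, 23.1 and 24.7 CPM to 47.3, 39.4, 45.8 and 40.6 CPM, a log2 fold change of 1.00 (SE 0.14, adjusted p = 0.00608). An intronic region of Prex1, which encodes a Rac exchange factor, went from 34.9, 34.7 and 29.6 CPM to 46.0, 70.6, 66.1 and 79.0 CPM. Both groups of samples were tight in the first of these regions and the aged ones were spread in the second. The other named gains were an intergenic region on chromosome 9 nearest to Gm24141 (log2 fold change 0.94), Noct (0.93), which encodes the rhythmic phosphatase nocturnin, and the promoter of Acnat2 (0.92), a gene of bile acid and fatty acid conjugation.

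Among the called regions, 2 at plasma protein loci had higher fold changes, but there the ages overlapped. The region over Serpina3k and Serpina3m, serine protease inhibitors of plasma, measured 25.3, 80.5 and 105 CPM in young and 400, 87.3, 274 and 388 CPM in aged samples, a log2 fold change of 2.05 (SE 0.47, adjusted p = 0.0254). The region in the fibrinogen gene Fgg measured 55.9, 52.3 and 103 CPM in young and 244, 95.9, 108 and 200 CPM in aged samples, a log2 fold change of 1.23 (SE 0.31, adjusted p = 0.0341). In both, aged 2 lay within the range of the young samples. Serpina3k and Serpina3m belong to a multigene family, and no second place in GRCm38 matched this region at 95% identity or more over at least 80% of its length.

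**Figure D4:**
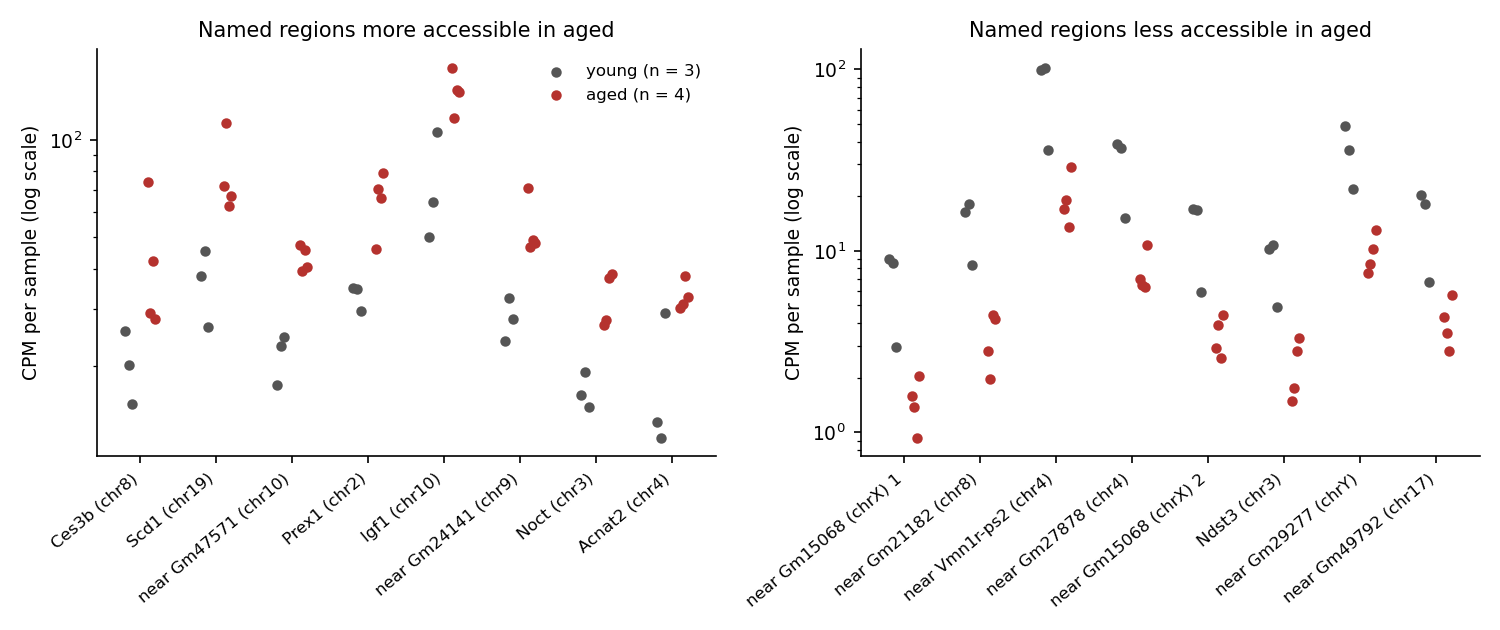
CPM per sample (log scale) in the 8 largest gains (left) and the 8 largest losses (right) among broad regions whose ages did not overlap. Grey points are the 3 young and red points the 4 aged samples. In the losses, young 3 lies between the other young samples and the aged ones.

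Further promoter regions that became more accessible belong to receptors and enzymes of the hepatocyte, picked here after their values were seen. Prlr, the prolactin receptor, measured 26.0, 37.9 and 30.4 CPM in young and 73.1, 47.1, 64.2 and 44.0 CPM in aged samples (log2 fold change 0.85). Cish, an inhibitor of cytokine receptor signalling, measured 57.7, 83.6 and 60.8 CPM in young and 123, 102, 122 and 98.3 CPM in aged samples (0.71). The gains at the growth factor receptors Egfr (0.52) and Fgfr4 (0.51) were smaller, as were those at Gc (0.49), the vitamin D-binding protein. Among enzymes, Fah of tyrosine breakdown had a log2 fold change of 0.57, Cbs of transsulfuration 0.57, citrate synthase Cs 0.53 and Mat1a of S-adenosylmethionine synthesis 0.46. At all of these the aged samples lay above the young ones.

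Lists of liver genes were followed as well. Of 24 hepatocyte transcription factors, 18 had a broad region, 24 regions in all, against 9 of 19 circadian clock genes, 15 of 31 immediate early and stress genes, 16 of 29 regulators of glucose, lipid and insulin, 17 of 25 plasma protein genes and 6 of 21 genes of bile acids and xenobiotics. The transcription factor regions gave 6 upward calls and none downward, beside 7.63% upward calls over all broad regions, and their median log2 fold change was 0.26.

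Onecut1, a factor of hepatocyte and bile duct development, had the largest of these gains. Its promoter region, at chr9:74861255-74868396, measured 113, 121 and 151 CPM in young and 297, 185, 249 and 213 CPM in aged samples, a log2 fold change of 0.88 (SE 0.16, adjusted p = 0.0120). The region at the start of Hnf4aos, which is transcribed opposite the nuclear receptor gene Hnf4a, measured 125, 134 and 115 CPM in young and 157, 150, 192 and 212 CPM in aged samples (0.51). The ages did not overlap at either gene. The broad promoter region of Hnf4a itself was not called (0.25, adjusted p = 0.145).

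The pioneer factor Foxa2 (log2 fold change 0.49), the nuclear receptors Nr5a2 (0.50, with 0.07 at a second promoter region) and Nr1i2 (0.52, with 0.19 at a second region of its body) and Gata6 (0.42) made up the remaining calls. The CpG-rich promoters of Cebpa and Cebpb, which hold the most accessible regions of the list after that of Onecut1 and Hnf4aos, were not called. Cebpa measured 134, 130 and 125 CPM in young and 129, 136, 153 and 130 CPM in aged samples (0.08, SE 0.11, adjusted p = 0.693).

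Among the metabolic regulators, 3 of 20 regions were called, all upward, beside 7.63% upward calls over all broad regions. The called regions include those of Scd1 and Igf1 described above. The insulin signalling genes Foxo3 (0.32) and Irs2 (0.23) and the coactivator Ppargc1b (0.14) were not called. The median of the 20 regions was 0.25.

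Of the 22 plasma protein regions, 2 were called upward and 1 downward, shares close to the 7.63% and 3.67% of all broad regions. Apoa1 measured 173, 203 and 184 CPM in young and 275, 215, 300 and 294 CPM in aged samples, a log2 fold change of 0.53 (SE 0.13, adjusted p = 0.0331). Fgg was the other gain. The loss was a second region of Serpina1a, 9233 bp from the nearest TSS, at 59.1, 44.1 and 62.8 CPM in young and 34.97, 29.0, 36.0 and 32.5 CPM in aged samples (-0.73), but its sequence recurs almost unchanged at another place in GRCm38. The broad promoter region of Serpina1a itself was not called (0.09).

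With edgeR no call was made among the 10 clock gene regions, the 17 immediate early gene regions or the 7 regions of bile acid and xenobiotic genes, beside 7.63% upward and 3.67% downward calls over all broad regions. At an unadjusted p under 0.05 there were 4 clock gene regions upward, 9 immediate early gene regions upward and 1 downward, and none of the last list. In either direction, 706 of all 1744 broad regions and 13699 of all 55680 regions passed that threshold. DESeq2 called 2, 5 and 0 regions upward in the 3 lists, voom 1, 4 and 0, and neither called any downward. Of all 1744 broad regions, DESeq2 called 291 upward and 65 downward, and voom 245 and 69. Of the clock genes, the nuclear receptor gene Rora was closest to the threshold (0.35, SE 0.10, adjusted p = 0.0580). Nr1d1, a repressor in the core loop, measured 118, 123 and 89.1 CPM in young and 136, 133, 154 and 172 CPM in aged samples (0.43, SE 0.14, adjusted p = 0.0747). Bhlhe40 (0.39), Cry2 (0.16) and Per2 (0.12) were further from the threshold. Jun measured 184, 178 and 187 CPM in young and 217, 220, 241 and 246 CPM in aged samples (0.34, SE 0.11, adjusted p = 0.0724). The ages did not overlap at Nr1d1, Cry2 and Jun, where the aged samples were higher, a pattern that 27.9% of all broad regions showed. The promoter regions of Klf10 (0.31), Klf13 (0.27) and Klf15 (0.23) were not called either, nor were further regions in the bodies of Klf13 (-0.50) and Klf15 (0.09). Of the last list, Ugt1a1 (0.20), Cyp2e1 (0.45), Cyp8b1 (-0.17) and Abcc2 (0.27) had the most accessible regions, and their ages overlapped. The medians of the 3 lists were 0.17, 0.31 and 0.26, beside 0.19 for all broad regions.

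Of the 6 most accessible regions that hold a whole protein-coding gene, the one at Apoa1 alone was called. Jund measured 130, 123 and 112 CPM in young and 156, 143, 154 and 169 CPM in aged samples (0.35, SE 0.11, adjusted p = 0.0723). Gpx1 (0.32), Ier2 (0.20), Ttc36 with Tmem25 (0.18) and Cdk2ap2 with Pitpnm1 (0.16) were smaller. At Mir148a the log2 fold change was 0.21 and at Mir802, whose host transcript is 1810044K17Rik, it was -0.04. Mir122, with its wide spread between samples, had a log2 fold change of 0.46 with an SE of 0.38.

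The losses were of a different kind. The 64 less accessible regions had a median of 42.3% repeat-masked bases, against 14.3% in the 133 more accessible ones and 13.7% in all broad regions. Of the 48 broad regions that were at least 50% repeat, 27 became less accessible and none more accessible. Over all broad regions 3.67% became less and 7.63% more accessible. Shorter regions as rich in repeats were not compared here. A second place in GRCm38 that matched at least 80% of the region at 95% identity or more was found for 7 of the 64 and for 1 of the 133. Reads from such sequence are hard to place, and the counts here came from reads above a mapping quality limit set by the authors. Without the repeat-rich regions 37 losses remained.

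**Figure D5:**
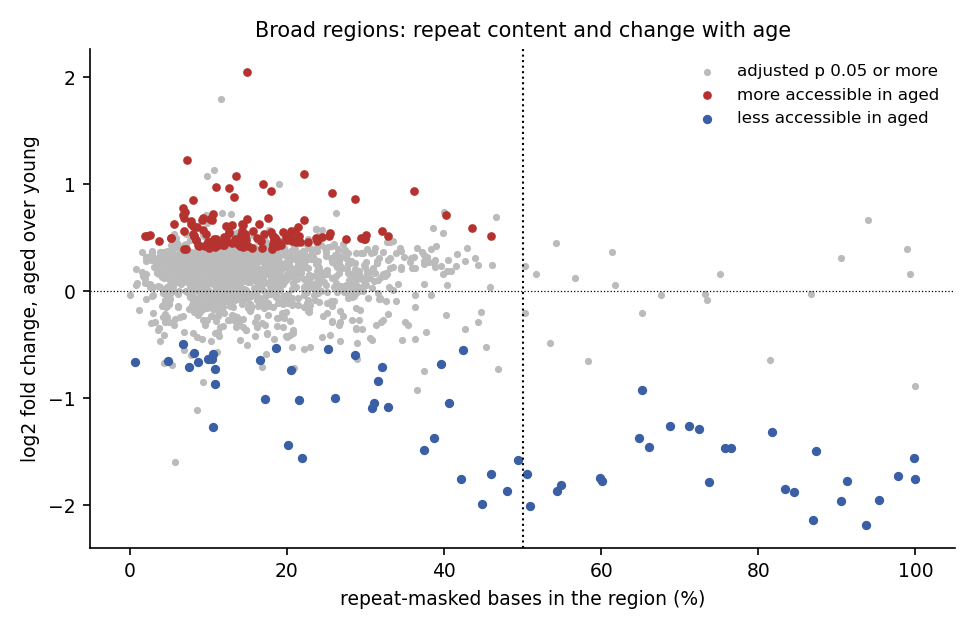
Log2 fold change (aged over young) of each of the 1744 broad regions against the percentage of its bases that are repeat-masked, with 50% dotted. Red and blue points are regions more and less accessible at an adjusted p under 0.05. Right of the dotted line lie 27 blue points and no red one.

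Among the 8 largest called losses without overlap between the ages, the region nearest to Gm27878 was 44.9% repeat and each of the others more than 50%. The largest, an intergenic region nearest to Gm15068 on chromosome X (chrX:170852366-170855017), was 93.7% repeat, and its sequence recurs in GRCm38. It measured 8.98, 8.54 and 2.96 CPM in young and 1.58, 1.37, 0.934 and 2.04 CPM in aged samples, a log2 fold change of -2.19 (SE 0.38, adjusted p = 0.0110). Another region nearest to the same gene had a log2 fold change of -1.96.

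The region nearest to Gm21182 on chromosome 8, whose centre is printed above without a single CpG, measured 16.5, 18.2 and 8.39 CPM in young and 2.81, 1.96, 4.44 and 4.2 CPM in aged samples (-2.14, SE 0.30, adjusted p = 0.00608). It held 0.772 CpG per kb. A region at the start of the chromosome 4 sequence, nearest to Vmn1r-ps2, was the most accessible of these 8, at 99.2, 102 and 36.2 CPM in young and 17.0, 19.0, 13.5 and 29.1 CPM in aged samples (-2.01, SE 0.30, adjusted p = 0.00691).

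The neighbouring region nearest to Gm27878, also printed above, measured 39.0, 37.0 and 15.1 CPM in young and 7.03, 6.47, 6.30 and 10.8 CPM in aged samples (-1.99). The remaining named losses were in an intron of Ndst3 (-1.95), nearest to Gm29277 on chromosome Y (-1.87) and nearest to Gm49792 at the start of the chromosome 17 sequence (-1.87).

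In each of these 8 regions young 3 lay below young 1 and young 2 and above every aged sample. Among the 27 repeat-rich losses young 3 was the lowest young sample at 26, and aged 4 was the highest aged sample at 26. Summed over these 27 losses, the CPM was 1240, 1135 and 501 in young and 278, 283, 272 and 440.4 in aged samples. Summed over the 37 losses that were less than 50% repeat it was 1683, 1638 and 1559 in young and 862, 898, 969 and 976 in aged samples, without a gap of that size between the young samples. These sums are over called regions and describe the samples only. Leaving out young 3, 56 losses were called, 55 of them among the 64.

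Some of the losses lay close to the ends of chromosomes. Of the 12 broad regions that begin before 3.2 Mb on a chromosome other than Y, where the mouse assembly starts next to the centromere, 10 became less accessible and none more. On chromosome X all 4 broad regions from 170 Mb on, at the end that pairs with chromosome Y, became less accessible, and they include the region over exons of Mid1 (-1.29). All 5 broad regions of chromosome Y did as well. Elsewhere 45 of 1723 broad regions became less accessible and 133 more. These positions were chosen after the calls were seen, so the counts are a description.

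Some losses lay in protein-coding genes. Creb3l3, a factor of fasting lipid metabolism, had with Thop1 a region at 64.2, 58.4 and 87.1 CPM in young and 27.8, 30.8, 52.8 and 26.1 CPM in aged samples (-1.04). Ftcd, an enzyme of histidine breakdown (-0.84), and Igfbp4, a binding protein of insulin-like growth factors (-0.68), followed. These genes were picked after their values were seen. The ages overlapped at Ftcd but not at Creb3l3 and Igfbp4.

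Only 10 promoter regions became less accessible. Psmd9, a proteasome assembly chaperone, measured 116, 134 and 133 CPM in young and 74.7, 88.8, 88.0 and 85.9 CPM in aged samples (-0.60, SE 0.11, adjusted p = 0.0129). Cyp2d9, a male-biased cytochrome P450, measured 147, 153 and 161 CPM in young and 95.1, 91.8, 110 and 79.8 CPM in aged samples (-0.71). A second broad promoter region of Cyp2d9, whose sequence recurs almost unchanged in GRCm38, was not called (-0.07, adjusted p = 0.716). The histone chaperone Npm3 (-0.71), the Wnt target Sp5 (-0.64) and Sox5 (-1.01) also became less accessible. The major urinary protein genes Mup11 (-1.09) and Mup18 (-1.0), whose sequences recur almost unchanged in GRCm38 as does that of Speer4cos (-1.56), and the non-coding Gm15540 (-0.64) and Gm27878 (-1.87) completed them. When promoters were taken from protein-coding transcripts alone, 4 of the 10 remained. Some coding genes named here thus had only starts of other transcript types in the region. The region at Psmd9 also overlapped the gene Hpd, and that at Gm15540 the gene Kyat3.

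The limit of 2500 bp cuts through a continuous range of lengths. Just inside it, at 2500 bp, lay intronic regions of Cdh2 (mean 19.5 CPM), Elovl6 (20.6 CPM) and Rell1 (30.9 CPM), and Cebpa was 2500 bp long as well. Just outside, at 2499 bp, lay the promoters of Idh1 (141 CPM), Alas1 (83.2 CPM) and Dnmt3a (77.6 CPM).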

How the data were processed

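Counts of ATAC-seq reads in liver samples of male mice aged 3 months (3 samples, young) or 18 months (4 samples, aged) were analysed. The authors deposited raw counts per consensus region, without normalization. According to the study's methods and the labels, reads were trimmed with cutadapt 1.13, aligned to GRCm38 with Bowtie2 2.4.1 and filtered for mapping quality, proper pairs, duplicates and mitochondrial reads. Peaks were called per library with MACS2 2.2.7, those present in at least 2 libraries formed the consensus, and featureCounts counted the reads. Region length was thus set by the merged peaks, is the same in every sample and depends on depth and peak calling.

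Regions were annotated with GENCODE M21 and the soft-masked GRCm38 sequence (bedtools 2.31.1, samtools 1.23.1, Python 3.11.15, pandas 2.3.3). Second matches in the genome were searched with minimap2 2.31. All 55680 regions were fitted with edgeR 4.0.16 in R 4.3.3, using TMM scaling, the two-sided quasi-likelihood test with age as the only factor, no filter on low counts and Benjamini-Hochberg adjustment over all regions, with calls at an adjusted p under 0.05. Every adjusted p is from this fit unless other settings are named beside it. The SE is the log2 fold change divided by the square root of the F statistic, and log2 CPM used a prior count of 2. In simulated data for this comparison over 55680 regions, 200 changed by a log2 change of 1, 59.5% of them were recovered, and 1.65% of 121 calls were false. The simulated samples were independent, shared a common dispersion and had no trend with abundance, and only better covered regions were changed. The simulation therefore does not give the share of false calls in the real data.

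Libraries held 4474652 to 25461110 counts in regions. Counts of libraries of one age differed by 2.38 to 6.06 times the sampling noise (chi-square per degree of freedom), so no library was counted as a duplicate. All 7 columns matched a sample. Named regions are the 10 longest, the 10 with the highest CPM per kb, the 8 largest gains and 8 largest losses among called regions without overlap between ages, up to 4 per gene list by mean CPM, and 3 on each side of the length limit. Called list regions, called promoter losses, regions with whole genes or miRNAs and others said to be picked were added after their values were seen. The members and lists were chosen with earlier results of these data known. Alternatives were DESeq2 1.42.0, voom (limma 3.58.1), other scalings, filters, thresholds, promoter definitions and lengths, omitted samples, summed pairs of aged samples and the replicate number as a block. DESeq2 was also the authors' test. Some results are not reported here.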

Additional observations from a re-analysis of the deposited data

Results flagged for a closer look

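Among the 4 aged samples, 1 stood apart from the other 3 in 3 of 99 values tested with Dixon's test at its 95% limit, which chance alone gives in about 1 of 20. In the intergenic region nearest to Gm24141 on chromosome 9, a named gain, aged 1 had a log2 CPM of 6.16 and the others 5.55 to 5.63, all above the young samples (4.60 to 5.03). In the exonic region of the clock gene Per2, aged 2 had a log2 CPM of 6.86 and the others 6.58 to 6.62, with young samples from 6.43 to 6.73. At the promoter of Mup18, aged 4 had a log2 CPM of 2.22 and the others 3.03 to 3.14, with young samples from 3.30 to 4.19.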

How the results depend on the processing

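The counts of more and less accessible broad regions, 133 and 64 (83 and 10 at promoters, 50 and 54 elsewhere), became 291 and 65 (204 and 10 at promoters, 87 and 55 elsewhere) with DESeq2, 245 and 69 (171 and 10 at promoters, 74 and 59 elsewhere) with voom, 59 and 82 (40 and 14 at promoters, 19 and 68 elsewhere) with libraries scaled to total counts, 434 and 63 (306 and 10 at promoters, 128 and 53 elsewhere) with offsets fitted on GC content and 6 and 61 (1 and 13 at promoters, 5 and 48 elsewhere) with offsets fitted on mean abundance. They were 52 and 55 (33 and 9 at promoters, 19 and 46 elsewhere) with at least 10 counts in every sample, 132 and 64 (82 and 10 at promoters, 50 and 54 elsewhere) after edgeR's filterByExpr, 4 and 11 (1 and 2 at promoters, 3 and 9 elsewhere) at an adjusted p under 0.01, 280 and 121 (168 and 25 at promoters, 112 and 96 elsewhere) at 2000 bp or more and 76 and 31 (49 and 5 at promoters, 27 and 26 elsewhere) at 3000 bp or more, where the number of broad promoter regions was 2303 and 537 in place of 1053. Summing pairs of aged samples gave 26 and 38 (15 and 6 at promoters, 11 and 32 elsewhere) for aged 1 and 3, 80 and 47 (50 and 7 at promoters, 30 and 40 elsewhere) for aged 2 and 3, 213 and 75 (136 and 14 at promoters, 77 and 61 elsewhere) for aged 2 and 4 and 70 and 61 (41 and 9 at promoters, 29 and 52 elsewhere) for aged 3 and 4. Leaving out 1 sample at a time gave 4 to 157 more and 16 to 77 less accessible regions, 2 to 96 and 4 to 13 at promoters, and 2 to 61 and 11 to 64 elsewhere. The counts fell by more than 1.5 times without young 1, young 2, aged 1 or aged 3, and the cause was not tested. Without the regions that are at least 50% repeat, an alternative chosen after seeing the data, 37 less accessible regions were left, 27 of them away from promoters, and with promoters of protein-coding transcripts alone 4 promoter losses were left. Without the regions that match a second place in GRCm38, also added later, no count moved by more than 1.5 times. The replicate number as a block (replicate block) gave 122 and 87 (67 and 17 at promoters, 55 and 70 elsewhere), with 83 of the 133 gains and 62 of the 64 losses shared. Deviations of same-numbered samples correlated at -0.12, 0.06 and 0.03, so the numbers were not taken to pair samples. The median log2 fold changes of all, promoter and other broad regions were 0.074, 0.094 and 0.026 with total counts, 0.25 and 0.27 for all and promoter regions with GC offsets, and reversed to -0.085, -0.087 and -0.073 with abundance offsets, which remove any trend with abundance by construction. The rise in the share of counts, 0.735 percentage points, was 1.28 at 2000 bp or more and 0.476 at 3000 bp or more. Of the 97 named regions, 57 were called. Of these, 44 were no longer called without young 1, 35 without aged 1, 34 without young 2, 32 without aged 3, 31 with abundance offsets and 28 with aged 1 and 3 summed. Over all settings the log2 fold change of Apoa1 ranged from 0.077 to 0.63 (adjusted p 0.0027 to 0.77), that of Dcaf6 with Mpc2 from 0.065 to 0.55, that of Nek8 with Tlcd1 from 0.053 to 0.50 and that of Gata6 from 0.099 to 0.52. No named region called in the main test changed direction, whereas some uncalled ones did. With abundance offsets they were Errfi1 (-0.50), Mir339 (-0.37), 1700028E10Rik (-0.10), Serpina1a (-0.29), Klf15 (-0.23), Mir122 (-0.081), Klf10 (-0.098), Klf13 (-0.16), Cebpb with Tmem189 (-0.24), Cebpa (-0.28), Cry2 (-0.17), Per2 (-0.20), Jun (-0.10), Foxo3 (-0.11), Irs2 (-0.15), Ppargc1b (-0.22), Ahsg (-0.14), Ugt1a1 (-0.21), Abcc2 (-0.045), Alas1 (-0.15), Tmem25 with Ttc36 (-0.21), Ier2 (-0.18), Jund (-0.022), Cdk2ap2 with Pitpnm1 (-0.22), Gpx1 (-0.056) and Mir148a (-0.070). The others were Mir339 (-0.10), Serpina1a (-0.026), Cebpa (-0.039) and Per2 (-0.0023) with total counts, Pck1 (0.078) with aged 1 and 2 summed, 1810044K17Rik with Mir802 (0.0022) with aged 1 and 3 summed and 1810044K17Rik with Mir802 (0.020) with aged 1 and 4 summed. They were also Mir339 (-0.00030) with aged 2 and 3 summed, Mir339 (-0.0034) with aged 2 and 4 summed, Mir339 (-0.023) with at least 10 counts, 1810044K17Rik with Mir802 (0.027) with GC offsets and Cdk2ap2 with Pitpnm1 (-0.015) with the replicate block. With 1 sample left out at a time, the values were -0.036 to 0.26 for Errfi1, -0.085 to 0.12 for Mir339, -0.44 to 0.13 for Pck1, -0.31 to 0.047 for Cyp8b1, -0.29 to 0.0040 for Cdh2, -0.10 to 0.41 for Elovl6, -0.065 to 0.38 for Alas1 and -0.23 to 0.071 for 1810044K17Rik with Mir802.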
